A study of Mus musculus with 8 samples.

Results

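The glial cells of the brain tumours were 54 single-cell transcriptomes, 19 from brain replicate 1 and 35 from brain replicate 2. They came from tumours that had grown for 3 weeks in mice after transfer of N2N1G, a line of murine small cell lung cancer cells. The series held 2 brain allografts and 3 subcutaneous allografts, both started by direct injection, and 3 liver allografts started through the tail vein. All tumours therefore carried cells of the same single line, and the labels used here give no strain, age or sex of the hosts and do not say whether a library came from 1 animal or a pool. Living cells had been sorted by flow cytometry before droplet 3' RNA sequencing on the 10x Genomics platform, and the gates of that sort, which can set the share of any host cell, are not given in the sources used here.

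The members were chosen by their own counts. A cell of a brain library was taken when it had at least 500 detected genes, at most 10% mitochondrial unique molecular identifiers (UMIs, each counting 1 captured RNA molecule), less than 0.2% of its UMIs from eGFP and Mycl together, at least 4 UMIs summed over Olig1, Cmtm5, Gpr37, Bcan and Hepacam, and at most 3 UMIs summed over the microglia genes Tyrobp, C1qa and C1qb. These limits left 54 of 7787 cells that passed the filter on genes and mitochondrial UMIs in brain, of 36797 such cells in all 8 libraries and of 38460 deposited cells. Since the same counts that define the members also carry every gene described here, all values below are descriptions without a test. Intervals are exact 95% intervals (Clopper-Pearson for shares, Poisson for CPM, the usual scale of UMIs divided by the UMI total of their group) and cover counting error only.

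Oligodendrocytes wrap axons in myelin, a membrane rich in a few structural proteins, sulfated and galactosylated lipids and cholesterol. They arise from progenitors that carry the PDGF alpha receptor and the proteoglycan Ng2, and that spread through the whole adult brain. Astrocytes take up glutamate, buffer potassium, carry water and small molecules through their membranes and gap junctions, and supply lipid particles loaded with apolipoprotein E. In normal brain these 3 types are the main glia other than microglia, and astrocytes at the edge of a brain lesion are known for raising Gfap and vimentin.

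Glial cells made up 0.563% (0.339 to 0.877) of the kept cells of brain replicate 1 and 0.793% (0.553 to 1.10) of those of brain replicate 2, a mean of 0.678% ± 0.163 (SD, n = 2). The intervals of the shares overlap. The same limits on counts found 0 of 13338 kept liver cells and 0 of 15672 kept subcutaneous cells, which over both sites, with 3 counts as the limit of a count of 0, allows a share of up to 0.0103%. The members held 104492 UMIs in brain replicate 1 and 121275 in brain replicate 2, with medians of 4436 and 2799 UMIs and of 2007 and 1597 detected genes per cell. Over all 8 libraries, the totals ran from 27140735 to 63049542 UMIs and the median kept cell had 7012 to 10344 UMIs. Of the members, 0 had a barcode that also occurred in the other brain library and 1 had a barcode found in another library of the series. Among all deposited cells of the brain libraries, 164 of 3742 and 201 of 4618 had a barcode found in another library.

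The values that chose the members were spread over all 5 genes and lay above the threshold by several UMIs in most cells. Olig1, a transcription factor of the oligodendrocyte lineage (chromosome 16, 91269772 to 91271933, plus strand, GENCODE M21 on GRCm38, also called mm10), had 130 UMIs in brain replicate 1 and 129 in brain replicate 2, in 39 members. Cmtm5, a membrane protein of the chemokine-like factor family enriched in glia (chromosome 14, 54936261 to 54939274, plus strand), had 43 and 90 UMIs in 41 members. Gpr37, an orphan receptor of myelinating oligodendrocytes (chromosome 6, 25665878 to 25690729, minus strand), had 97 and 71 UMIs in 31 members. Each of these 3 genes was found in most members of both libraries.

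Bcan, the matrix proteoglycan brevican (chromosome 3, 87987531 to 88000230, minus strand), had 68 and 111 UMIs in 27 members. Hepacam, the adhesion molecule GlialCAM (chromosome 9, 37367351 to 37386575, plus strand), had 25 and 42 UMIs in 37 members. The summed count of the 5 genes had a lowest, median and highest value of 6, 21 and 40 UMIs in brain replicate 1 and of 4, 12 and 32 in brain replicate 2. Just inside the threshold, 0 and 2 members had 4 UMIs and 0 and 2 had 5, and just outside it 2 cells of brain replicate 1 and 0 of brain replicate 2 had 3.

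A tumour-gate and a myeloid-gate group from the same libraries served as references. Tumour-gate cells passed the cell filter with an eGFP and Mycl share of at least 0.2%, fewer than 4 UMIs of the glial genes and at most 3 of the microglia genes, which gave 2279 and 4018 cells with medians of 7820 and 8385 UMIs. Myeloid-gate cells had the tumour share below 0.2%, over 3 UMIs of the microglia genes and fewer than 4 of the glial genes, which gave 828 and 257 cells with medians of 4253 and 3908 UMIs. The transcript of the reporter eGFP stood at 3452 and 3515 CPM in tumour-gate cells, at 60.6 and 55.0 CPM in myeloid-gate cells and at 153 and 132 CPM in the glial cells, with 16 UMIs in each library. It was found in 8 of 19 and 4 of 35 members, and the highest eGFP and Mycl share of a member was 0.193% and 0.174%. In brain replicate 2, the member with the highest share held 13 of the 16 eGFP UMIs.

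Marker lists of glia that the rule did not name were high in the members, as described by class, and markers of other host cells were at or near 0. Of 12 microglia and macrophage genes, Csf1r and Mrc1 had 0 UMIs in the members, and the list summed to 220 and 107 CPM against 23627 and 21991 CPM in myeloid-gate cells. Neither the 6 T and NK cell genes measured nor the 5 erythroid genes had a UMI in any member. The 10 endothelial genes summed to 28.7 and 33.0 CPM, with Cldn5, Pecam1 and Cdh5 at 0, and the 11 pericyte and fibroblast genes to 38.3 and 24.7 CPM, with Col1a2, Col3a1 and Dcn at 0. Among 12 neuron genes Rbfox3 and Slc17a7 were at 0, and the list stood at 115 and 74.2 CPM in the members against 247 and 231 CPM in tumour-gate cells.

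Markers of the tumour line were present at a low level. The 12 tumour genes summed to 1455 and 1262 CPM in the members and to 4745 and 4854 CPM in tumour-gate cells, and 53 of 54 members had at least 1 such UMI. Of the 11 that could be compared, 7 were at least 4-fold lower in the members in both libraries, among them Chga, the granule protein chromogranin A, with 3 and 1 UMIs in the members. Of all genes compared with tumour-gate cells, 3.87% were lower by that limit. Ncam1, an adhesion molecule shared by neural and neuroendocrine cells, stood instead at 584 and 552 CPM in the members and at 229 and 262 CPM in tumour-gate cells. The part of tumour RNA in the members' counts was not tested.

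The 54 members were divided into 3 classes. When the members alone were clustered, 26 cells lay in a pair of clusters in which all 18 mature oligodendrocyte genes were detected in at least 20% of the cells. Another 9 cells formed a cluster with all 15 oligodendrocyte progenitor genes detected at that level, and 19 cells formed a cluster with all 20 astrocyte genes. They are called oligodendrocyte-like, progenitor-like and astrocyte-like. The progenitor-like cluster rests on both libraries together: with either brain library clustered alone, 0% of the members lay in a cluster of that name. Assigning each cell to the class with the most list UMIs gave the same class for 53 of 54, the exception being a progenitor-like cell of brain replicate 2 with 30 mature oligodendrocyte and 7 progenitor UMIs.

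**Figure D1:**
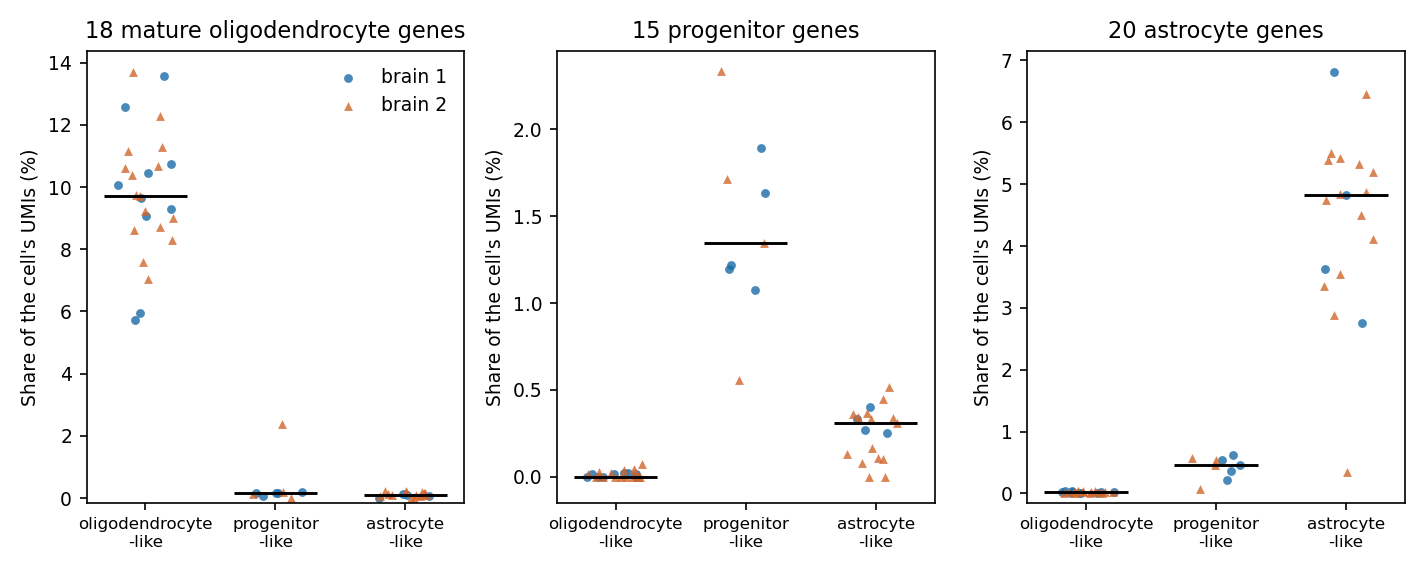
Share of each member's UMIs, in percent, that came from 18 mature oligodendrocyte genes (left), 15 progenitor genes (middle) and 20 astrocyte genes (right), by class; each point is 1 cell, circles are brain replicate 1, triangles brain replicate 2, and the bar is the median of the class. The oligodendrocyte genes took 5.72% to 13.7% of the UMIs of the oligodendrocyte-like cells and at most 2.39% of any other member's.

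In oligodendrocyte-like cells the mature oligodendrocyte genes took 5.72% to 13.7% of all UMIs, with a median of 9.72%, against medians of 0.156% in progenitor-like and 0.112% in astrocyte-like cells. The progenitor genes took a median of 1.34% in progenitor-like cells, 0.310% in astrocyte-like cells and 0% in oligodendrocyte-like cells. Astrocyte genes took a median of 4.83% in astrocyte-like, 0.464% in progenitor-like and 0.0252% in oligodendrocyte-like cells. One astrocyte-like cell of brain replicate 2 stood apart from the other 18, with an astrocyte share of 0.351%. Its depth of 8823 UMIs was the largest among that library's members, near the median of 8036 UMIs of all its kept cells. It held 21 UMIs of the tumour list, 32 UMIs of the S phase list and 37 UMIs of Fabp7.

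The make-up of the members differed between the libraries, but the intervals of each class overlap. Oligodendrocyte-like cells were 10 of 19 members (52.6%, 28.9 to 75.6) in brain replicate 1 and 16 of 35 (45.7%, 28.8 to 63.4) in brain replicate 2. Progenitor-like cells were 5 of 19 (26.3%, 9.15 to 51.2) and 4 of 35 (11.4%, 3.20 to 26.7). Astrocyte-like cells were 4 of 19 (21.1%, 6.05 to 45.6) and 15 of 35 (42.9%, 26.3 to 60.6). Depth also differed between the classes: the median was 6978 and 3971 UMIs in oligodendrocyte-like cells, 3857 and 2587 in progenitor-like cells and 3220 and 1952 in astrocyte-like cells. The part of depth in these shares, which rest on a minimum of 4 UMIs, was not tested.

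The 5 rule genes were not shared evenly among the classes. Olig1 stood at 483 and 1189 CPM in the oligodendrocyte-like cells of the 2 libraries and at 4917 CPM in the progenitor-like cells of both together, and at 0 and 227 CPM in astrocyte-like cells. Bcan had 0 UMIs in all 26 oligodendrocyte-like cells, 2151 CPM in progenitor-like cells and 1977 and 2441 CPM in astrocyte-like cells. Gpr37 had the opposite distribution, with 1275 and 927 CPM in oligodendrocyte-like and 0 in progenitor-like cells, and astrocyte-like cells held 152 and 101 CPM. Hepacam was found in 18 oligodendrocyte-like, 3 progenitor-like and 16 astrocyte-like cells.

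**Figure D2:**
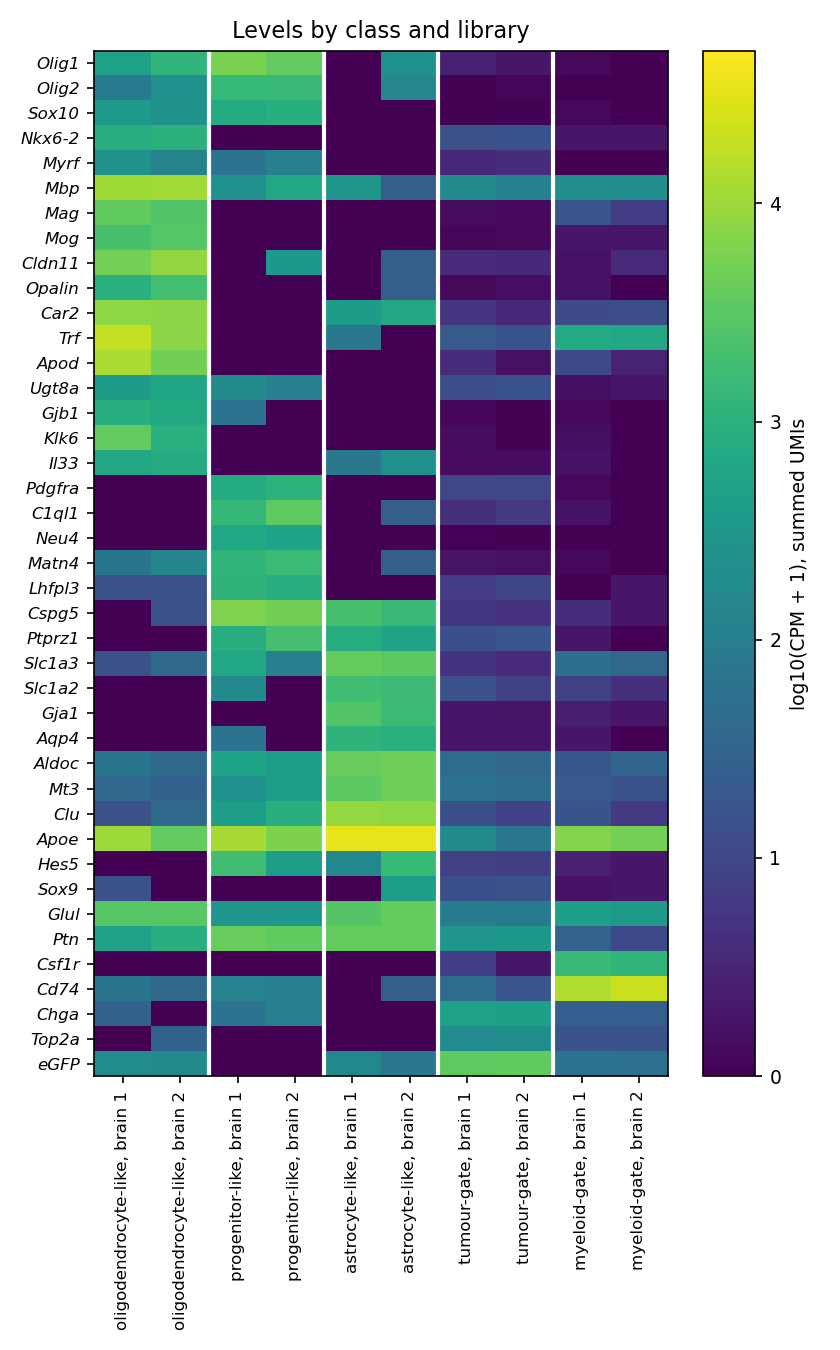
Level of 41 genes, as log10 of CPM plus 1 from UMIs summed over the cells of a group, in the 3 classes of members and in tumour-gate and myeloid-gate cells of each brain library; rows are genes, columns are groups and colour gives the level (0 is no UMI). Myelin genes are high in oligodendrocyte-like columns, Pdgfra, C1ql1 and Neu4 in progenitor-like columns, and Slc1a2, Gja1 and Aqp4 in astrocyte-like columns, in both libraries.

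The oligodendrocyte-like cells had the profile of mature, myelinating cells. Among their regulators, Sox10, a transcription factor of the whole lineage, stood at 349 and 263 CPM, Myrf, which drives myelin genes, at 255 and 125 CPM, and Nkx6-2 at 832 (638 to 1066) and 1037 (816 to 1300) CPM, with Nkx6-2 found in 10 of 10 and 15 of 16 cells. Mbp, a major protein of myelin, stood at 10760 and 11284 CPM in these cells.

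Proteins of the myelin surface and of its junctions were high in the same cells. Mag, which binds axons at the inner face of myelin, had 3555 and 2600 CPM, and Mog, on its outer face (chromosome 17, 37010743 to 37023398, minus strand), had 2187 and 2932 CPM. Both had 0 UMIs in every progenitor-like and astrocyte-like cell. Cldn11, the tight junction protein of myelin, stood at 5152 and 8657 CPM, and Gjb1, its gap junction protein connexin 32, at 926 and 705 CPM. Hapln2, a link protein of the matrix at nodes of Ranvier, had 1301 (1055 to 1588) and 1023 (804 to 1285) CPM and was found in 23 of the 26 cells and in no other member.

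Enzymes of myelin lipid synthesis followed the same distribution. Ugt8a, which makes galactosylceramide, stood at 389 and 567 CPM in oligodendrocyte-like cells, Fa2h, which hydroxylates its fatty acid, at 241 and 401 CPM, and Aspa, which frees acetate from N-acetylaspartate, at 617 and 761 CPM. Fa2h and Aspa had 0 UMIs in the other classes. Gal3st1, which adds the sulfate of sulfatide, was also present in progenitor-like cells, at 269 CPM beside 215 and 277 CPM. Markers of newly formed oligodendrocytes were lower in number: Bcas1 had 18 UMIs over all members and stood at 93.9 and 55.3 CPM in oligodendrocyte-like and 269 CPM in progenitor-like cells, and Enpp6 at 429 and 318 CPM and 38.4 CPM.

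The progenitor-like cells carried the receptor and surface genes of oligodendrocyte progenitors. Pdgfra, the PDGF alpha receptor (chromosome 5, 75152292 to 75198215, plus strand), had 13 UMIs in 5 of 5 cells of brain replicate 1 and 10 UMIs in 3 of 4 cells of brain replicate 2, which was 774 (412 to 1323) and 1084 (520 to 1993) CPM, and had 0 UMIs in every other member. C1ql1, a secreted C1q-like protein, had 1369 (868 to 2054) and 3468 (2372 to 4895) CPM, and Olig2, the partner of Olig1, had 1428 (915 to 2125) and 1517 (829 to 2545) CPM. Gpr17, a receptor of committed progenitors, was found in 4 of the 9 cells with 8 UMIs in total. Cspg4, the proteoglycan Ng2, had 9 UMIs over all members and stood at 307 CPM in progenitor-like cells.

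Progenitor-like cells also shared genes with the astrocyte-like cells. Cspg5, the proteoglycan neuroglycan C, stood at 5762 CPM in progenitor-like cells, at 2129 and 1485 CPM in astrocyte-like cells and at 0 and 13.8 CPM in oligodendrocyte-like cells. Ptprz1, a receptor phosphatase that binds pleiotrophin, stood at 1268 CPM beside 837 and 503 CPM, and had 0 UMIs in oligodendrocyte-like cells. Ptn, its ligand pleiotrophin, was at 3918 CPM in progenitor-like and 3802 and 3851 CPM in astrocyte-like cells, against 483 and 913 CPM in oligodendrocyte-like cells. Of the 20 astrocyte genes, 10 were detected in at least 20% of the progenitor-like cells. The 9 cells had a median of 14 astrocyte UMIs each.

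The astrocyte-like cells carried genes of glutamate uptake, potassium and water handling and gap junctions. Slc1a3, the glutamate transporter GLAST (chromosome 15, 8634124 to 8710764, minus strand), had 50 UMIs in 4 of 4 cells of brain replicate 1 and 129 in 15 of 15 cells of brain replicate 2, which was 3802 (2822 to 5013) and 3247 (2711 to 3858) CPM. Slc1a2, the transporter GLT-1, stood at 1825 and 1686 CPM and had 0 UMIs in oligodendrocyte-like cells. Gja1, the gap junction protein connexin 43 (chromosome 10, 56377330 to 56402513, plus strand), had 2662 (1854 to 3702) and 1611 (1241 to 2057) CPM and was found in no other class. Aqp4, the water channel of astrocyte endfeet, had 1141 (638 to 1881) and 956 (677 to 1313) CPM. The intervals of all these genes overlap between the libraries.

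Apolipoproteins differed in level between the classes. Apoe, the main apolipoprotein made in brain, stood at 35209 (32075 to 38567) and 34531 (32728 to 36408) CPM in astrocyte-like cells, at 12080 (10475 to 13861) and 5960 (4490 to 7758) CPM in progenitor-like cells and at 10357 (9639.5 to 11114) and 3734 (3302 to 4207) CPM in oligodendrocyte-like cells. The intervals of the last 2 classes overlap in brain replicate 1 and not in brain replicate 2. They leave out the spread between cells. Single oligodendrocyte-like cells of brain replicate 1 held from 6 to 237 Apoe UMIs, and progenitor-like cells of brain replicate 2 from 0 to 24. In myeloid-gate cells Apoe stood at 6632 and 5303 CPM and in tumour-gate cells at 167 and 69.3 CPM. Clu, the apolipoprotein clusterin, had 9049 and 7827 CPM in astrocyte-like and 13.4 and 41.5 CPM in oligodendrocyte-like cells. Apod, apolipoprotein D, had the reverse, with 12584 and 4909 CPM in oligodendrocyte-like cells and 0 UMIs in the other classes.

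Among genes linked to astrocyte reactivity, Vim was found in few of the 19 cells, and Gfap in at least 20% of them. Gfap, the astrocyte intermediate filament, had 304 (82.9 to 779) and 1057 (762 to 1429) CPM, but 30 of its UMIs in brain replicate 2 came from 1 cell. Vim, the filament vimentin, was found in 3 astrocyte-like cells, with 20 and 12 UMIs in 2 cells of brain replicate 2 and 3 UMIs in 1 cell of brain replicate 1. The same 2 cells of brain replicate 2 held 21 and 3 UMIs of S100a4 and 57 and 13 of S100a6, a pair of calcium-binding proteins, and no other astrocyte-like cell had more than 3 UMIs of S100a6. Of the 18 genes of the reactive astrocyte list, Lcn2, Steap4, Osmr, S1pr3, Aspg, Hspb1, Gbp2 and C3 had 0 UMIs in all 54 members.

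Across all genes, the members were set against tumour-gate and myeloid-gate cells of the same library. UMIs were summed per group, and a gene was called when its CPM was at least 4-fold higher, or lower, in the members in both libraries. Genes entered with at least 10 UMIs observed in the members or 10 expected from the reference, so a gene low in both was left out and the counts describe the genes compared, not whole lists. Of 4883 genes set against tumour-gate cells, 746 were higher (15.3%) and 189 lower (3.87%), and of 4772 set against myeloid-gate cells 853 were higher (17.9%) and 308 lower (6.45%). The median log2 ratio was 0.0093 against tumour-gate and 0.55 against myeloid-gate cells. Higher genes were 79.8% and 73.5% of the calls, which became 74.7% and 52.2% with size factors of DESeq2 and 64.3% and 49.5% with TMM factors of edgeR. Those factors moved the median log2 ratios to -0.15 and -0.19 and to -0.39 and -0.28. Since the rule made this contrast, nothing is read from how far a list's count lies from these shares.

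Ranked by the smaller of their 2 library ratios to the higher reference, the leading 20 genes began with myelin genes. Beside Mog, Cldn11, Ermn, Apod, Aspa and Opalin they held Pllp, a tetraspan protein of myelin, with 1292 and 1113 CPM, Car2, a carbonic anhydrase, Tnfaip6, a hyaluronan-binding protein, with 345 and 338 CPM, and Omg, the oligodendrocyte myelin glycoprotein, with 316 and 272 CPM. Enpp2, the enzyme autotaxin, Sept4, a septin of the myelin sheath, Hapln2 and Klk6 were the others with most UMIs in oligodendrocyte-like cells. By level with both libraries pooled, Pllp was higher in progenitor-like cells, at 1882 CPM beside 1498 CPM in oligodendrocyte-like cells. Omg stood at 359 CPM in astrocyte-like and 300 CPM in oligodendrocyte-like cells. Atp1b2, a sodium pump subunit, Gja1 and Htra1, a secreted protease with 459 and 594 CPM, came mainly from astrocyte-like cells, with 77, 99 and 90 of their UMIs there. Cspg5 came from progenitor-like and astrocyte-like cells, and Pcdh9, a protocadherin, from all 3 classes.

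The genes lowest in the members included tumour genes against tumour-gate cells and antigen presentation and complement genes against myeloid-gate cells, which the rule fixes in part. Against tumour-gate cells the 10 lowest were Spint2, Cenpa, Wfdc2, eGFP, AC149090.1, Cited4, Chga, Calca, Cdkn2a and Krt18, of which Spint2, an epithelial protease inhibitor, stood at 267 and 244 CPM in tumour-gate cells and had 1 UMI in each library in the members. Against myeloid-gate cells they were Fcer1g, H2-Aa, Cd74, C1qa, C1qc, C1qb, Ctss, H2-Eb1, Trem2 and H2-Ab1. Trem2, a lipid receptor of microglia, stood at 1469 and 953 CPM there and had 1 UMI in each library in the members. C1qa and C1qb are genes of the rule, as is eGFP.

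**Figure D3:**
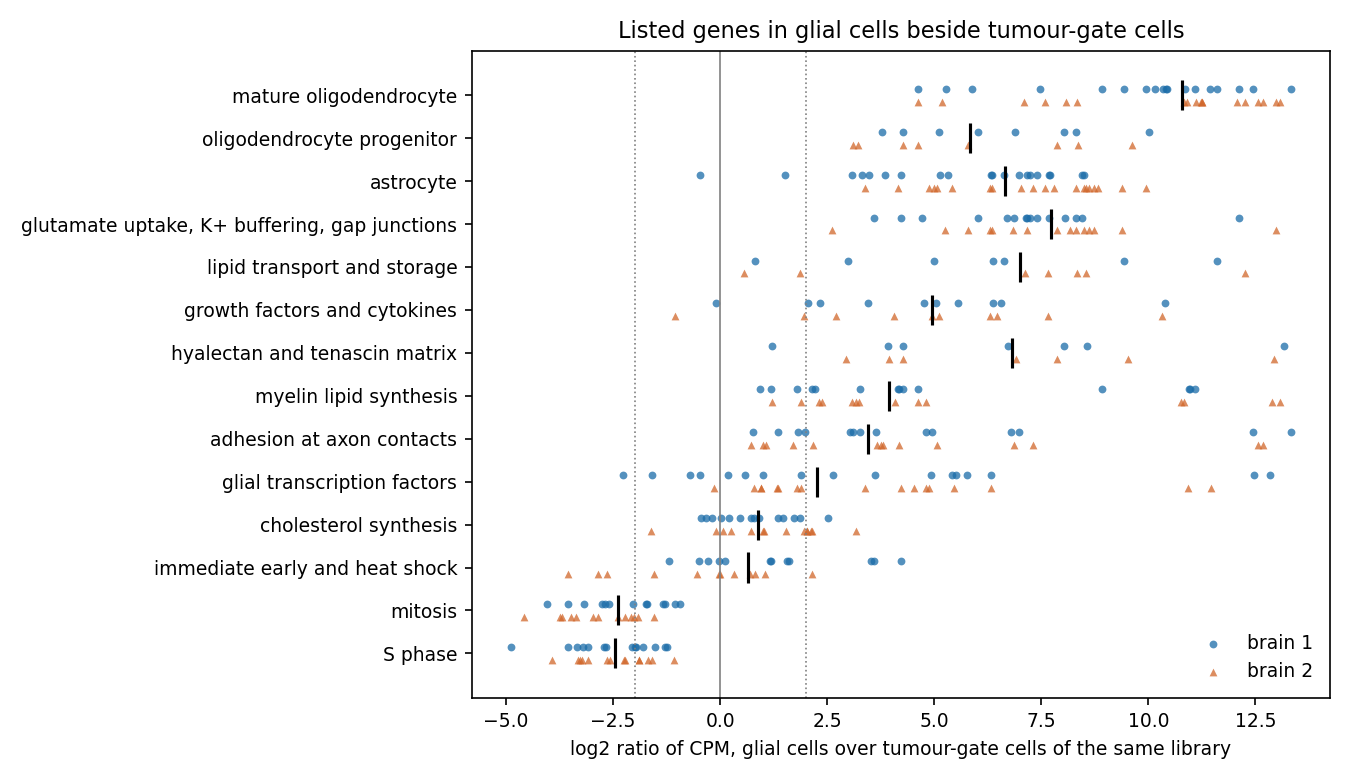
The log2 ratio of CPM in glial cells to CPM in tumour-gate cells of the same library, for the genes of 14 lists that could be compared; each point is 1 gene in 1 library, circles are brain replicate 1, triangles brain replicate 2, a group without a UMI is set to 3 counts, the bar is the list's median of the mean of both libraries and dotted lines mark 4-fold. The medians of the 2 cell cycle lists lie below 0 and those of the other 12 lists above it.

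Most listed genes of glial function were higher than in tumour-gate cells. A gene without a UMI was set to 3 counts in that library, and such a value was used only as a bound. All 15 genes of glutamate uptake, potassium buffering and gap junctions were called higher (median log2 ratio 7.73), as were 11 of 14 genes of myelin lipid synthesis (3.94), 10 of 14 genes of adhesion at axon contacts (3.46), 6 of 7 genes of the hyalectan and tenascin matrix (6.81) and 5 of 7 of lipid transport (7.01). No gene of these lists was called lower. Over all genes compared with tumour-gate cells, 15.3% were called higher and 3.87% lower. Glul, glutamine synthetase, was shared by 2 classes, with 2978 and 3056 CPM in oligodendrocyte-like cells and 2738 and 3951 CPM in astrocyte-like cells, against 307 CPM in progenitor-like and 95.2 and 82.2 CPM in tumour-gate cells. Lsamp and Ntm, neural adhesion molecules of the IgLON family, were found at 989 and 604 and at 989 and 529 CPM in astrocyte-like cells and had 0 UMIs in oligodendrocyte-like cells.

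Among 20 transcription factors of glia, 17 could be compared and 8 were higher than in tumour-gate cells, beside 15.3% of all genes compared. Olig2 stood at 287 (194 to 410) and 305 (215 to 421) CPM in the members and at 0.0507 and 0.157 CPM in tumour-gate cells. Sox10 stood at 373 and 223 CPM against 0.0507 and 0.0785 CPM. Sox2, Zbtb20, Id2 and Id4 were not called, with tumour-gate levels of 62.6 and 68.4, 328 and 375, 231 and 248, and 143 and 170 CPM. Sox9, which tumour-gate cells held at 13.3 and 13.4 CPM, had 1 and 17 UMIs in the members, 17 of them in astrocyte-like cells of brain replicate 2.

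Genes of cholesterol synthesis stood closer to their level in tumour-gate cells. Of 14 genes compared, only Msmo1, a sterol oxidase, was called higher, with 278 and 511 CPM against 48.2 and 56.3 CPM, and the median log2 ratio was 0.89. Against myeloid-gate cells 8 of 13 were higher, 5 with the size factors of DESeq2 and 4 with TMM factors of edgeR. The share of all compared genes called higher was 15.3% against tumour-gate and 17.9% against myeloid-gate cells. Hmgcs1, the HMG-CoA synthase of the pathway, stood at 172 and 313 CPM in the members, 91.2 and 71.0 CPM in tumour-gate and 27.3 and 20.4 CPM in myeloid-gate cells.

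Ligands that act on other cells differed between the classes. Pdgfa, the ligand of the progenitor receptor, stood at 376 and 346 CPM in oligodendrocyte-like cells and 6.08 and 6.49 CPM in tumour-gate cells. Il33, an alarmin cytokine of oligodendrocytes, stood at 657 (486 to 869) and 774 (585 to 1006) CPM in oligodendrocyte-like, 0 in progenitor-like and 76.0 and 227 CPM in astrocyte-like cells, and at 0.355 and 0.419 CPM in tumour-gate cells. Mdk, midkine, stood at 532 and 428 CPM in astrocyte-like cells and had 0 UMIs in oligodendrocyte-like cells. In all, 8 of 10 compared growth factors and cytokines were higher than in tumour-gate cells (7 with TMM factors), the others being Fgf1, Gas6, Ptn, Csf1 and Apoe, while Igf1, Bdnf, Nrg1, Il34, Cx3cl1 and Ccl2 had 0 UMIs in the members. Over all genes compared, 15.3% were higher.

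Targets of Notch were found in the astrocyte-like and progenitor-like classes. Hes5, a Notch target, had 1785 and 433 CPM in progenitor-like and 152 and 1460 CPM in astrocyte-like cells, with 0 UMIs in oligodendrocyte-like cells. Of its 34 UMIs in progenitor-like cells, 22 came from 1 cell of brain replicate 1. Hes1 and Hey1 were the other 2 of 5 compared genes that were higher than in tumour-gate cells (2 genes in all with DESeq2 or TMM scaling), and Dll3, an inhibitory ligand and a tumour marker, was lower, with 3 UMIs in the members against 72.4 and 74.9 CPM. Over all genes compared with tumour-gate cells, 15.3% were higher and 3.87% lower. Of the reelin pathway, Vldlr, a reelin receptor, stood at 95.7 and 74.2 CPM against 2.13 and 1.86 CPM, and Reln itself had 0 UMIs in the members.

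Some genes of cell division were lower than in tumour-gate cells. Of the mitosis list 7 of 13 compared genes and of the S phase list 6 of 14 were called lower than in tumour-gate cells, with medians of -2.39 and -2.45 on the log2 scale and 9 and 10 calls with TMM factors. Over all genes compared, 3.87% were called lower. Mki67 had 0 UMIs in the 54 members against 72.2 and 72.4 CPM in tumour-gate cells, and Top2a, a topoisomerase of dividing cells, had 2 UMIs in 1 member. Mitosis genes had a UMI in 23 members, and 1 oligodendrocyte-like cell of brain replicate 2 held 18. That cell also held the 2 Top2a UMIs, 13 UMIs of eGFP and an eGFP and Mycl share of 0.174%. This share was the highest of that library's members, and the part of tumour RNA in that cell's counts was not tested. At the depth of the members, a gene with few expected UMIs could not be called lower.

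Most MHC class II genes, and some interferon and MHC class I genes, were lower than in myeloid-gate cells. Of 7 MHC class II genes 6 were lower than in myeloid-gate cells, with Cd74, the invariant chain, at 67.0 and 41.2 CPM against 13720.5 and 20738 CPM. Of 11 MHC class I presentation genes 5 were lower (10 with DESeq2 or TMM scaling), and B2m, its light chain, stood at 622 (480 to 793) and 396 (292 to 525) CPM in the members, 158 and 112 CPM in tumour-gate and 5834 and 4882 CPM in myeloid-gate cells. Of 13 interferon response genes 6 were lower than in myeloid-gate cells and 1, Ifi27, was higher (0 higher with DESeq2 or TMM scaling). Over all genes compared with myeloid-gate cells, 6.45% were lower and 17.9% higher. Bst2, an antiviral membrane protein, had 1 and 3 UMIs in the members and was lower than in both references.

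Within the oligodendrocyte-like cells, Klk6 and Ptgds were each high in some cells. Klk6, a secreted kallikrein protease of oligodendrocytes (chromosome 7, 43824499 to 43832030, plus strand), had at least 3 UMIs in 10 cells and Ptgds, prostaglandin D synthase, in 13 cells, with both in 2 cells and neither in 5. At 1 UMI or more, 13 cells had Klk6, 18 had Ptgds and 6 had both, 5 of these 6 in brain replicate 1. Each gene was among the 10 leading genes of 1 of the clusters of oligodendrocyte-like cells. The cluster led by Ptgds had 17 cells, 3 of brain replicate 1 and 14 of brain replicate 2, and the one with Klk6 among its leading genes had 9 cells, 7 of brain replicate 1 and 2 of brain replicate 2. The latter was led by Csrnp1, Sbno2 and Mvp, with Klk6 the fourth and the immediate early gene Fosb the fifth, and is called the Klk6 cluster. Klk6 stood at 4543 (4022 to 5111) and 2033 (1303 to 3025) CPM in the second of these and at 218 (44.9 to 636) and 777 (571 to 1033) CPM in the first, a difference that the clustering itself used. In brain replicate 2 the Klk6 cluster held cells with 4 and 20 Klk6 UMIs, and the Ptgds cluster held cells with 30 and 16.

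**Figure D4:**
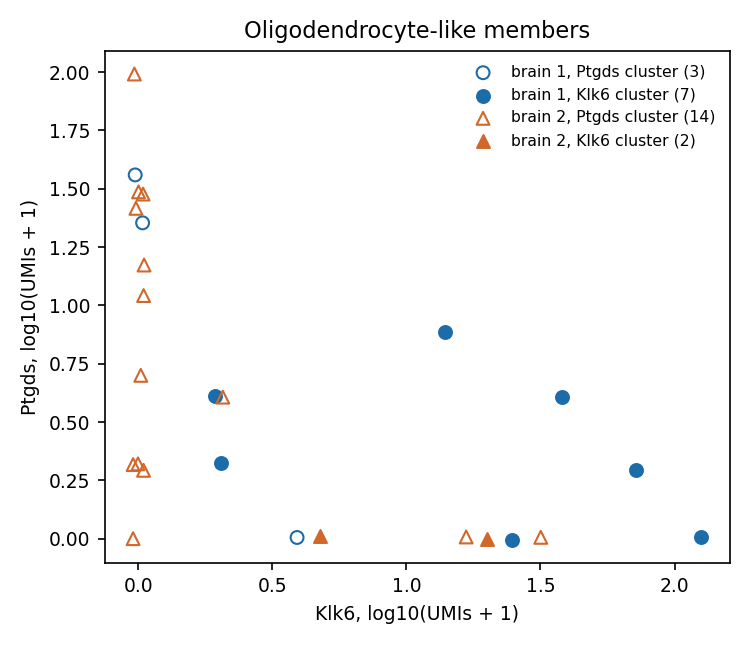
Klk6 (horizontal) and Ptgds (vertical) UMIs of the 26 oligodendrocyte-like cells, as log10 of UMIs plus 1 with a small shift so that equal points can be seen; circles are brain replicate 1, triangles brain replicate 2, and filled points lie in the cluster with Klk6 among its leading genes. Of the 26 cells, 10 had at least 3 Klk6 UMIs, 13 at least 3 Ptgds UMIs and 2 at least 3 of both.

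Other genes of a disease-associated oligodendrocyte list differed in distribution over the clusters. Serpina3n, an acute phase protease inhibitor, had 26 UMIs in 7 of 7 cells of brain replicate 1 and 1 UMI in 1 of 2 cells of brain replicate 2 in this cluster, and 0 UMIs in all 17 cells of the Ptgds cluster. C4b, complement component C4, had 66 UMIs in 7 of 7 cells and 0 in 2 cells of the Klk6 cluster, against 0 in 3 and 22 in 14 cells of the Ptgds cluster. Il33 stood at 675 (484 to 915) CPM in brain replicate 1 and had 0 UMIs in brain replicate 2 in the Klk6 cluster, against 581 (251 to 1144) and 925 (699 to 1202) CPM in the Ptgds cluster. The higher Serpina3n and C4b of the Klk6 cluster come from brain replicate 1. Trf, transferrin, stood at 22054 and 10929 CPM in the Klk6 cluster and 4282 and 7024 CPM in the Ptgds cluster, and Apod at 14763 and 7286 CPM beside 2976 and 4445 CPM. Opalin and Mal, late myelin proteins, were leading genes of the Ptgds cluster, with 170 of 212 and 260 of 332 of the members' UMIs there. The clusters differed in depth, with medians of 7645 and 4228 UMIs, and in library, and the part of either was not tested.

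Of the 15 genes on that list, 13 could be compared and 7 were higher than in tumour-gate cells (6 with DESeq2 or TMM scaling): Klk6, C4b, Serpina3n, Il33, Anxa5, Sgk1 and Ctsb. Against myeloid-gate cells 4 were higher and 2, Ctsb and Cdkn1a, lower, and the median log2 ratio of 0.17 turned to -0.56 with DESeq2 size factors and to -0.66 with TMM factors. Over all genes compared, 15.3% were higher than in tumour-gate cells, and 17.9% higher and 6.45% lower than in myeloid-gate cells. Trib3, a gene of the stress response, had 0 UMIs in the members, and Ddit3 had 11 and 4.

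Between the libraries, immediate early genes were among those that differed most in level in the members. Of 2071 genes with at least 20 UMIs, 71 were higher in brain replicate 1 and 69 in brain replicate 2, counted where the exact intervals did not overlap. With 1 library on each side there is no replicate for this difference. Fos, a transcription factor induced within minutes of stimulation, had 447 UMIs in 14 of 19 members of brain replicate 1 and 65 UMIs in 10 of 35 members of brain replicate 2, which was 4278 (3890 to 4693) and 536 (414 to 683) CPM. The genes with the largest ratio towards brain replicate 1 were Dusp1, a phosphatase that ends MAP kinase signals, with 60 and 3 UMIs, Fosb with 38 and 2, Serpina3n with 29 and 3, Ier2 with 38 and 5, and Junb with 111 and 15. Towards brain replicate 2 they included Agt, angiotensinogen, with 1 and 23 UMIs, Id3 with 12 and 145, Ifitm3 with 2 and 24, and Lgals1 with 2 and 22. Of the 145 Id3 UMIs, 138 were in astrocyte-like cells, where the ratio was 4.57 beside 10.4 over all members. The part of the classes' unequal shares in these differences was not tested. Single cells of brain replicate 2 held 18 of the 23 Agt UMIs, 13 of the 24 of Ifitm3 and 9 of the 22 of Lgals1, and single cells of brain replicate 1 held 27 of the 60 Dusp1 UMIs and 17 of the 38 of Ier2.

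The difference in Fos held in 2 of the 3 classes. It stood at 4333 (3874 to 4833) and 373 (246 to 543) CPM in oligodendrocyte-like cells, at 7200 (5975 to 8603) and 1192 (595 to 2133) CPM in progenitor-like cells, and at 228 (47.0 to 667) and 680 (448 to 989) CPM in astrocyte-like cells, where the intervals overlap. The progenitor-like level of brain replicate 1 rests on few cells, which held 28, 0, 64, 0 and 29 Fos UMIs. The astrocyte-like level of brain replicate 2 also rests on few cells. Its deepest member held 12 Fos UMIs and the cell with the most Vim 13, and no other astrocyte-like cell there had more than 1. In the reference cells of the same libraries Fos was also higher in brain replicate 1, at 228 and 121 CPM in tumour-gate and 3455 and 1663 CPM in myeloid-gate cells. The whole list of immediate early and heat shock genes summed to 10719 and 3290 CPM in the members, 4863 and 3783 CPM in tumour-gate cells and 14160 and 7871 CPM in myeloid-gate cells. Against tumour-gate cells, 1 of 12 genes of the list, Fos, was called higher in the members, and 0 with DESeq2 or TMM scaling. The share of all compared genes called higher was 15.3%.

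In oligodendrocyte-like cells, 64 of 1286 genes compared were higher in brain replicate 1 and 38 in brain replicate 2. Socs3, an inhibitor of cytokine signals, had 46 UMIs in 7 of 10 cells of brain replicate 1 and 0 in 16 cells of brain replicate 2, a level of 617 (452 to 823) CPM against at most 51.0 CPM. Cebpd, an acute phase transcription factor, had 22 and 1 UMIs, Serpina3n 26 and 1, Fosb 33 and 1 and Chchd10, a mitochondrial protein, 45 and 1. Apod, Trf and Klk6 were higher in brain replicate 1 and Opalin and Mal in brain replicate 2, with intervals that did not overlap. Most of the class lay in the Klk6 cluster in brain replicate 1 (7 of 10 cells) and in the Ptgds cluster in brain replicate 2 (14 of 16 cells). Fos was higher in brain replicate 1 within both clusters, at 5086 (4534 to 5686) and 2118 (1371 to 3126) CPM in the Klk6 cluster and at 1016 (556 to 1705) and 33.1 (4.0 to 119) CPM in the Ptgds cluster. The brain replicate 1 cells of the Ptgds cluster were few and held 3, 0 and 11 Fos UMIs.

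**Figure D5:**
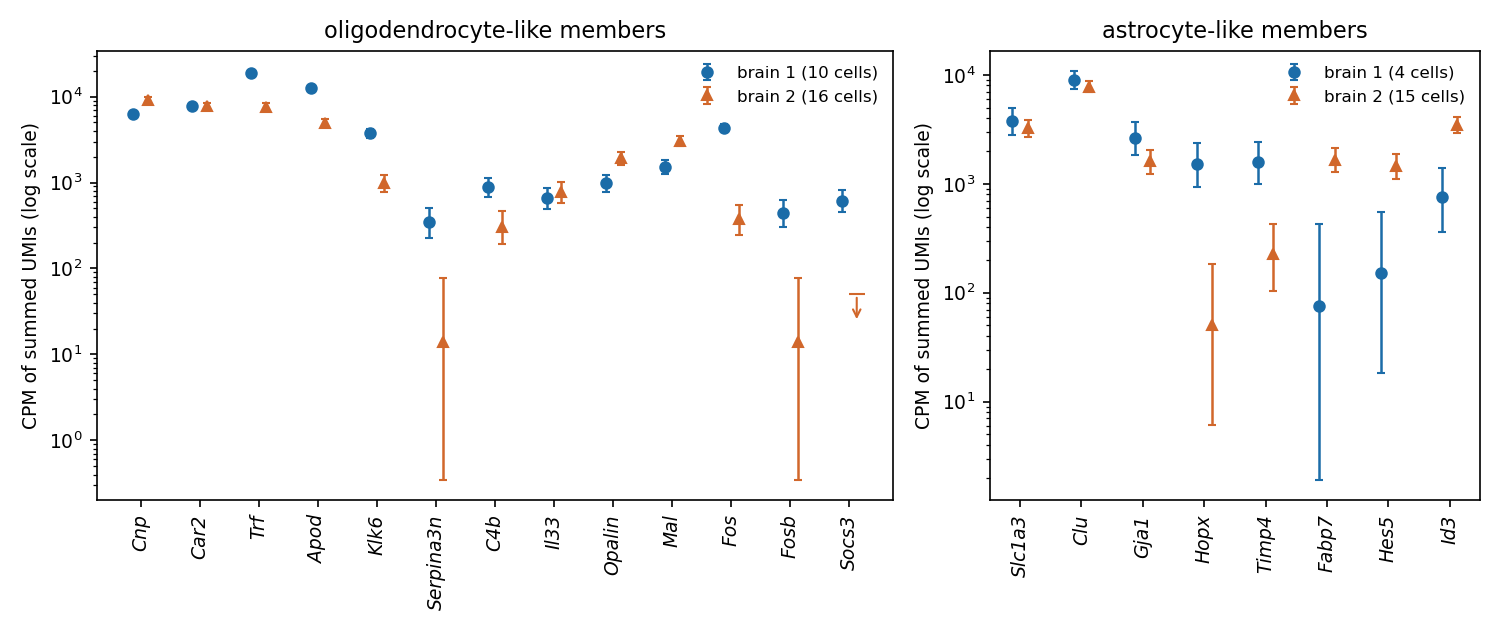
CPM of 13 genes in oligodendrocyte-like cells (left) and 8 genes in astrocyte-like cells (right), on a log scale, from UMIs summed over the cells of each library; circles are brain replicate 1, triangles brain replicate 2, bars are exact 95% Poisson intervals and the arrow marks the upper bound of a count of 0. Fos, Fosb and Socs3 are higher in brain replicate 1 and Opalin and Mal in brain replicate 2, while Slc1a3, Clu and Gja1 overlap.

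In astrocyte-like cells 16 of 438 genes compared were higher in brain replicate 1 and 13 in brain replicate 2, and for some of them single cells held many of the UMIs. Hopx had 20 and 2 UMIs and Timp4, a metalloproteinase inhibitor, 21 and 9, of which 1 cell of brain replicate 1 held 17 and 16. Fabp7, a fatty acid binding protein of radial glia and astrocytes, had 1 and 66 UMIs, and the deepest member of brain replicate 2 held 37 of them. S100a6 had 4 and 81 UMIs, 57 of them in the cell with the most Vim. Id3, an inhibitor of basic helix-loop-helix factors, had 10 UMIs in 3 of 4 cells of brain replicate 1, 8 of them in 1 cell. In brain replicate 2 it had 138 UMIs in 10 of 15 cells, with 35 in the deepest member and 25 in the cell with the most Vim. Hes5 had 2 UMIs in 1 of 4 cells and 58 in 11 of 15 cells, 18 of them in the cell with the most Vim. With 4 cells in brain replicate 1, these levels rest on few cells of that library.

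Glial transcripts were also counted at a low level in tumour-gate cells of the brain libraries. The mature oligodendrocyte list stood at 118 and 106 CPM there and at 59.8 to 65.8 CPM in tumour-gate cells of the 6 liver and subcutaneous libraries, and the astrocyte list at 242 and 214 CPM against 94.0 to 164 CPM. Mbp stood at 173 and 116 CPM against 31.2 to 41.9 CPM, and at 211 and 222 CPM in the myeloid-gate cells of brain. Sparcl1, a matrix protein of astrocytes, stood at 13.9 and 8.54 CPM against 0 to 1.66 CPM, and Slc1a3 at 3.95 and 2.59 CPM against 0 to 0.168 CPM. Ptn, which tumour cells express at every site, stood at 295 and 320 CPM against 216 to 308 CPM. The source of these UMIs was not tested.

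How far the share of members with a UMI lay from that in the reference cells depended on the gene. Mag was found in 52.6% and 45.7% of the members (medians of 4436 and 2799 UMIs), against 0.395% and 0.224% of tumour-gate cells and 7.37% and 2.72% of myeloid-gate cells. After thinning every cell to 1500 UMIs, which left out 0 and 4 members, the shares were 42.1% and 51.6% in the members, 0.0886% and 0.0499% in tumour-gate cells and 2.99% and 0.897% in myeloid-gate cells. Slc1a3 was found in 36.8% and 54.3% of the members, 2.90% and 2.26% of tumour-gate cells and 17.1% and 12.5% of myeloid-gate cells. Trf was found in 57.9% and 45.7% of the members and in more of the myeloid-gate cells, 76.3% and 75.9%. After the same thinning these shares lay closer, at 52.6% and 51.6% of the members and 55.9% and 60.1% of the myeloid-gate cells.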

How the data were processed

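Each of the 8 libraries was a 10x 3' single-cell library of allograft tumour tissue. The authors deposited raw UMI counts per gene and cell, made with Cell Ranger, STAR and the mm10 genome per the submitters' processing notes, with software version 3.0.0 per the file headers. The gene annotation behind the counts and any removal of doublets are not given in the sources used here. No doublet caller was run here.

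Counts of each cell were tested against the limits of the rule, members were clustered (1000 variable genes, 10 principal components, 8 neighbours, Leiden resolution 1, scanpy 1.11.5), and a cluster took the name of the oligodendrocyte, progenitor or astrocyte list with the most UMIs per cell where at least 3 of its markers were detected in at least 20% of the cluster's cells. UMIs were summed per library and group and divided by their total (CPM). The call rule was a 4-fold ratio in both brain libraries, and the calls and the clustering were tested on simulated data. Alternative scaling used edgeR 4.0.16 and DESeq2 1.42.0, and 1 alternative, leaving out the largest member of each library, was chosen after seeing the data. No p-value was computed, since the rule uses the same counts. Members, lists and comparisons were chosen with earlier results of these data known. Of 435 entries in 32 gene lists, 433 are in the tables. Named genes were those of the rule, members of a list described, the 20 leading genes, the 10 lowest against each reference, the 10 leading genes of a cluster and the 5 largest differences between the libraries in each direction; Trem2 and Spint2 were singled out among these after their values were seen. Some genes that this choice covers are not reported here. Levels were not scaled to gene length, since the assay counts 3' ends. The labels do not say whether replicates were separate animals, so the spread between them may be technical. Python 3.11.15 and R 4.3.3 were used, and gene positions are from GENCODE M21.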

Additional observations from a re-analysis of the deposited data

Results flagged for a closer look

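Cells outside the members carried the glial genes in both brain libraries and in 0 of the 6 liver and subcutaneous libraries. In brain replicate 1, 3 cells, and in brain replicate 2, 7 cells that passed the cell filter had at least 4 UMIs of the 5 glial genes together with an eGFP and Mycl share of at least 0.2%, which kept them out. These 10 cells had medians of 20525 and 13052 UMIs, a range of 9550 to 22615, against medians of 7820 and 8385 in tumour-gate cells. Their eGFP and Mycl shares ran from 0.299% to 1.02%. Of the 10 cells, 5 had at least 20 UMIs of the mature oligodendrocyte list, 5 at least 20 of the astrocyte list and 1 at least 20 of the progenitor list.

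Another 9 cells of brain replicate 1 and 4 of brain replicate 2 met the UMI limits of the rule but failed the cell filter, 8 and 3 of them on mitochondrial UMIs above 10% and 1 and 1 on fewer than 500 detected genes.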

How the results depend on the processing

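Of 127 values under alternatives, 105 stayed within 1 SD of the reported share or within 1.5 times the reported count and 22 moved further. These values are shares and counts, for which no reversal was defined. The median log2 ratio of some lists changed sign under an alternative. For immediate early and heat shock genes against tumour-gate cells it went from 0.66 to as low as -0.17. For disease-associated oligodendrocyte genes against myeloid-gate cells it went from 0.17 to as low as -0.66. With eGFP and Mycl under 0.5%, oligodendrocyte-like cells were 56.2% of the members, averaged over the libraries, and 64 genes were lower than in tumour-gate cells. With members that had no Tyrobp, C1qa or C1qb UMI, 178 genes were lower than in myeloid-gate cells. TMM factors gave 349 genes lower than in tumour-gate and 635 lower than in myeloid-gate cells, and DESeq2 size factors 589 lower than in myeloid-gate cells. Thinning to 1500 UMIs gave 375 higher and 83 lower against tumour-gate and 395 higher and 121 lower against myeloid-gate cells. Counting genes with at least 1 expected UMI gave 1267 and 1489 higher. A 2-fold limit gave 1246 higher and 857 lower against tumour-gate and 1473 higher and 727 lower against myeloid-gate cells. For all of these the cause was not tested, beyond the change of limit itself. With either library alone, rebuilt clusters gave 48.6% (without brain replicate 1) to 78.9% (without brain replicate 2) oligodendrocyte-like, 0% progenitor-like (without either) and 21.1% (without replicate 2) to 51.4% (without replicate 1) astrocyte-like members, and 532 to 622 genes higher and 221 to 313 lower against tumour-gate and 549 to 687 higher and 328 to 426 lower against myeloid-gate cells. Progenitor-like cells formed a cluster of their own only when both libraries were clustered together, while the list sums gave 8 progenitor-like cells. Without the member with the most UMIs of each library, an alternative chosen after seeing the data, 66 and 64 genes differed between the libraries in place of 71 and 69. The 54 members limit the depth: a gene expected at few UMIs could not be called lower. No paired analysis was possible because the results come from no test. Members and reference cells were already compared within each library.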

Other observations

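Several genes of peripheral glia and of ependymal cells were not found in the members. Among the genes of Schwann and olfactory ensheathing cells, Prx, a protein of peripheral myelin, Ngfr, Foxd3 and Scn7a had 0 UMIs in the members, while Mbp and Pmp22, which central glia also express, were at least 4-fold higher than in tumour-gate cells in both libraries. Npy, neuropeptide Y, had 10 UMIs in brain replicate 1, 7 of them in progenitor-like and 3 in astrocyte-like cells, and 0 in brain replicate 2, with an exact upper bound of 30.4 CPM. Of 8 ependymal genes, Tmem212, Ccdc153, Dynlrb2 and Cfap44 had 0 UMIs, and the list summed to 67.0 and 98.9 CPM in the members against 55.5 and 78.5 CPM in tumour-gate cells.

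Ifi27, an interferon-inducible gene, was found in 38 of 54 members, in all 3 classes, with 50 UMIs in brain replicate 1 and 87 in brain replicate 2. Its level in the members was 479 (355 to 631) and 717 (575 to 885) CPM, against 134 and 175 CPM in tumour-gate cells and 93.8 and 86.0 CPM in myeloid-gate cells. By class, both libraries pooled, it stood at 579 CPM in oligodendrocyte-like, 576 in progenitor-like and 700 in astrocyte-like cells.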
